A study of Homo sapiens with 6 samples.

Results

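The genes described here are 10 members of the BCL2 family of apoptosis regulators: BCL2, BCL2L1, MCL1, BAX, BAK1, BID, BIK, BBC3, PMAIP1 and BCL2L11. They were chosen by name, as well-known pro- and anti-apoptotic genes, out of 56303 gene symbols in the deposited count table, and all 10 passed the filter on low counts. The libraries came from SW480, an established human line derived from a colon adenocarcinoma. Cells were infected with lentivirus carrying either a non-silencing short hairpin RNA (shCtrl, labelled wild type) or a hairpin against the splicing factor RBM39 (shRBM39, labelled RBM39 knockdown), and both were selected with puromycin. There were 3 libraries per group and 6 in all. The study's methods describe stable clonal lines and 3 replicate experiments per group, so a difference between lines and an effect of the hairpin cannot be told apart, and p-values measure the spread between libraries of a line.

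BCL2 family proteins set the threshold at which the outer mitochondrial membrane is permeabilised. BCL2, BCL-xL (the long protein of BCL2L1) and MCL-1 hold the effectors BAX and BAK in check. The BH3-only proteins BIM (from BCL2L11), BID, PUMA (BBC3), NOXA (PMAIP1) and BIK bind the guardians, and some of them activate BAX and BAK directly. Once the effectors form pores, cytochrome c leaves the mitochondrion and caspases are activated. BBC3, PMAIP1 and BAX are well-known transcriptional targets of p53, a protein that SW480 cells carry in mutant form.

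Knockdown of RBM39 went with opposite changes inside the BH3-only group. BBC3 fell by 1.93 on the log2 scale (standard error 0.13, n = 3 per group), and PMAIP1 by 0.31 (standard error 0.09). BIK rose by 0.94 (standard error 0.12), and BID by 0.27 (standard error 0.08). Both effectors rose, BAX by 0.37 and BAK1 by 0.41, while the transcripts of the guardians BCL2, BCL2L1 and MCL1 were not called. In all, 4 of the 10 genes were called higher and 2 lower by the quasi-likelihood test of edgeR (threshold 0.05 on the p-value adjusted over all 18243 genes tested). Of all tested genes, 29.2% were called higher and 29.9% lower, 59.1% in all, so the share of members called is near that background. The median log2 fold change was 0.13 over the 10 genes and -0.01 over all tested genes.

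The targeted gene was checked first. CPM values are counts scaled to a common library size, here with TMM factors, which align the bulk of genes between libraries. RBM39 fell by 0.67 on the log2 scale, from 441 ± 6.53 to 278 ± 13.3 CPM (SD, n = 3), in libraries with 18042924 to 20428901 counts. Of the epithelial markers examined, KRT8, KRT18, EPCAM and VIL1 were abundant in every library, whereas CDX1 had at most 2 counts. KRT20 was also near the floor, with 11, 5 and 3 counts in shCtrl and 18, 25 and 19 in shRBM39. CDH1 had 89.3 ± 0.567 CPM in shCtrl and 68.3 ± 1.98 CPM in shRBM39 (SD, n = 3). CDX2, an intestinal transcription factor, had 432 to 476 counts in shCtrl and 80 to 109 in shRBM39. The 8 epithelial markers summed to 11439 to 12023 CPM in shCtrl and 13311 to 13762 CPM in shRBM39, both by library totals. KRT8 and KRT18 made up most of both sums, and the markers did not move together. KRT8, KRT18 and KRT20 were called higher in the edgeR fit, at log2 fold changes of 0.43, 0.24 and 1.82. CDX2, CDH1 and VIL1 were called lower, at -2.13, -0.39 and -0.09, and EPCAM was not called, at 0.02. Markers of fibroblasts, leukocytes and endothelium summed to at most 19.4 CPM each in any library, with PTPRC and KDR at 0 counts in all 6. The fibroblast sum was 7.22 to 7.56 CPM in shCtrl and 9.19 to 12 CPM in shRBM39, and the endothelial sum 3.58 to 4.79 against 6.18 to 7.64 CPM; their part in the results was not tested. In bulk RNA, fewer cells expressing a gene and less RNA per cell cannot be told apart.

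**Figure D1:**
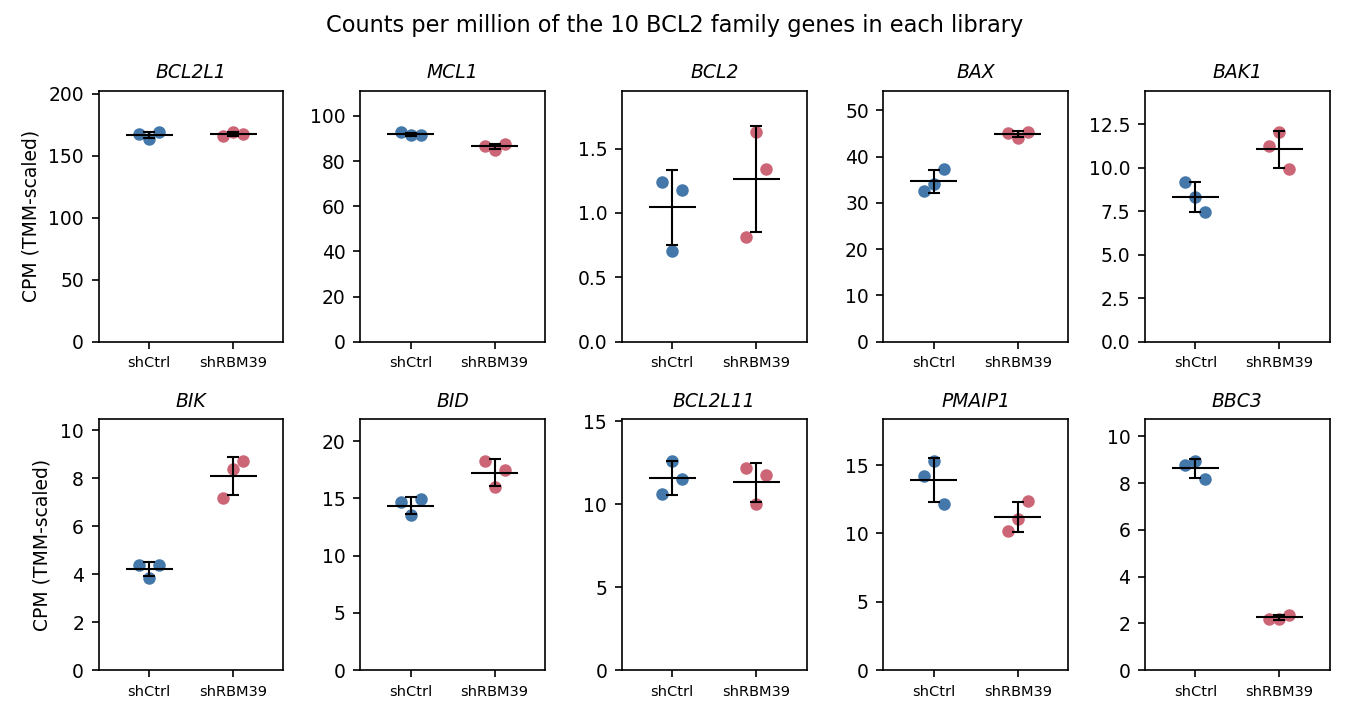
CPM of each gene in each library (points), scaled with TMM factors, with the mean (line) and SD (bars) of 3 libraries per group; each panel starts at 0 and has its own scale. BBC3 sits at 8.17 to 8.95 CPM in shCtrl and 2.19 to 2.37 in shRBM39, BIK moves the other way, and the points of BCL2L1 overlap.

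Sequences are given first for the gene with the largest difference, BBC3, and for BAX, the effector with the most counts. RefSeq promoter windows (GRCh38.p14, from 250 bases before to 50 after a transcription start) were matched for 8 of the 10 genes in 13 windows. MCL1 and BIK had no window. The motif CACGTG, an E-box that reads the same on both strands and is bound by MYC and related factors, is in capitals below. It was present in windows of 3 of the 8 genes (BAX, BBC3 and BID). By windows it was in 4 of the 13, some of which overlap within BID, against 7.26% of 35116 promoter windows. That background counts windows and not genes. The BID windows that hold the motif overlap and share the same site. The BBC3 window lies at chr19:47232618-47232917 on the minus strand and the BAX window at chr19:48954625-48954924 on the plus strand, both printed 5′ to 3′ in the direction of transcription.
BBC3: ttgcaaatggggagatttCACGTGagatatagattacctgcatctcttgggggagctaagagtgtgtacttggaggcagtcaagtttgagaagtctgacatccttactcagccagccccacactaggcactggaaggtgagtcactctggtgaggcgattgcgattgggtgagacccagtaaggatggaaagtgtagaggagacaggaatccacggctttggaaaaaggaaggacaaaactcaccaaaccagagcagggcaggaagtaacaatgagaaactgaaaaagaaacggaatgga
BAX: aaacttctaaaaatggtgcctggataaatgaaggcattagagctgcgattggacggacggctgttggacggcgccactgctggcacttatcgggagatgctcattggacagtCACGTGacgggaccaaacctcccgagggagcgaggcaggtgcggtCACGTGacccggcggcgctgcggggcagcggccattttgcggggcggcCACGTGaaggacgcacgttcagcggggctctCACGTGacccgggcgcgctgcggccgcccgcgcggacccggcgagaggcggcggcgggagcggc

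The BBC3 window holds 1 copy of CACGTG and the BAX window 4 copies. The GC content is 48.0% in the BBC3 window and 67.3% in the BAX window, with a median of 58.7% over all windows. The motif GGGCGG, searched on both strands, was in 9 of the 13 windows (6 of the 8 genes), with 1 copy per strand in the BAX window and none in the BBC3 window, and present in 45.0% of all windows. The p53 response element decamer, searched on both strands by its consensus, was found in 1 of the 13 windows, that of BAK1, against 6.63% of all windows. TGATGNAA, a form of the site bound by ATF4 with its partners, was in none of the 13 windows and in 3.62% of all. GTAAACA, a forkhead site, was in 1 window, that of BCL2L11, against 3.42% of all. These matches describe the letters of the windows and say nothing of whether a factor was bound.

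BBC3 encodes PUMA, a BH3-only protein able to bind all of the guardians. The gene (chromosome 19, 47220822 to 47232766, minus strand, GRCh38) had 8.78, 8.95 and 8.17 CPM in shCtrl replicates 1, 2 and 3 and 2.19, 2.21 and 2.37 CPM in shRBM39. The groups were far apart, and the spread within each was small. The values rest on 166 to 190 counts per shCtrl library and 38 to 46 per shRBM39 library. BBC3 was thus 3.81-fold lower in shRBM39 (log2 fold change -1.93, 95% interval -2.20 to -1.67, edgeR adjusted p 8.50e-15). Its fold change ranked 93rd from the lowest of 18243 tested genes, and it was the 1 member called with a change of at least 2-fold, where 6.52% of tested genes had such a change in either direction and 4.16% a fall. On log2(RPKM + 1), a scale that shrinks low genes, the difference was -1.19.

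PMAIP1 (chromosome 18, 59899948 to 59904306) encodes NOXA, a BH3-only protein that binds MCL-1 preferentially. Its values were 14.2, 15.3 and 12.2 CPM in shCtrl and 10.2, 11 and 12.3 CPM in shRBM39. The groups overlapped, since shRBM39 replicate 3 lay above shCtrl replicate 3. The log2 fold change of -0.31 (95% interval -0.50 to -0.13) was nonetheless called, with an edgeR adjusted p of 0.00347. Without shCtrl replicate 2 it was -0.23 with an edgeR adjusted p of 0.0458, the highest p of this gene among the fits that left out 1 library.

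BIK, whose BH3-only protein resides mainly at the endoplasmic reticulum, moved most among the genes that rose. BIK (chromosome 22, 43110748 to 43129712) had 4.37, 3.86 and 4.38 CPM in shCtrl and 7.20, 8.37 and 8.73 CPM in shRBM39. The lowest shRBM39 library lay well above the highest shCtrl library. The change was 1.92-fold (log2 0.94, 95% interval 0.70 to 1.19, edgeR adjusted p 2.00e-08), the 503rd highest of all tested genes. BIK and BBC3, 2 of the 10 members, were still called when the null was a change of at most 0.5 on the log2 scale, as were 12.2% of tested genes.

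BID, which caspase-8 cleaves to link death receptors to mitochondria, had 14.7, 13.5 and 14.9 CPM in shCtrl and 18.3, 16.0 and 17.5 CPM in shRBM39. The groups did not overlap, but the margin between shRBM39 replicate 2 and shCtrl replicate 3 was about 1 CPM. BID (chromosome 22, 17734138 to 17774770) differed by 0.27 (95% interval 0.11 to 0.42, edgeR adjusted p 0.00277). This call was lost when libraries were scaled by their totals, at 0.14 with an edgeR adjusted p of 0.103. It was also lost in the limma fits on log2(RPKM + 1) and log2(RPKM + 0.1), at 0.11 and 0.14.

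BCL2L11 encodes BIM, an activator that binds every guardian as well as BAX. The gene (chromosome 2, 111119378 to 111168447) had 10.6, 12.6 and 11.5 CPM in shCtrl and 12.2, 9.99 and 11.8 CPM in shRBM39. These ranges overlapped almost entirely. The log2 fold change was -0.03, and its 95% interval of -0.21 to 0.15 leaves room for differences of that size in either direction (edgeR adjusted p 0.794).

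**Figure D2:**
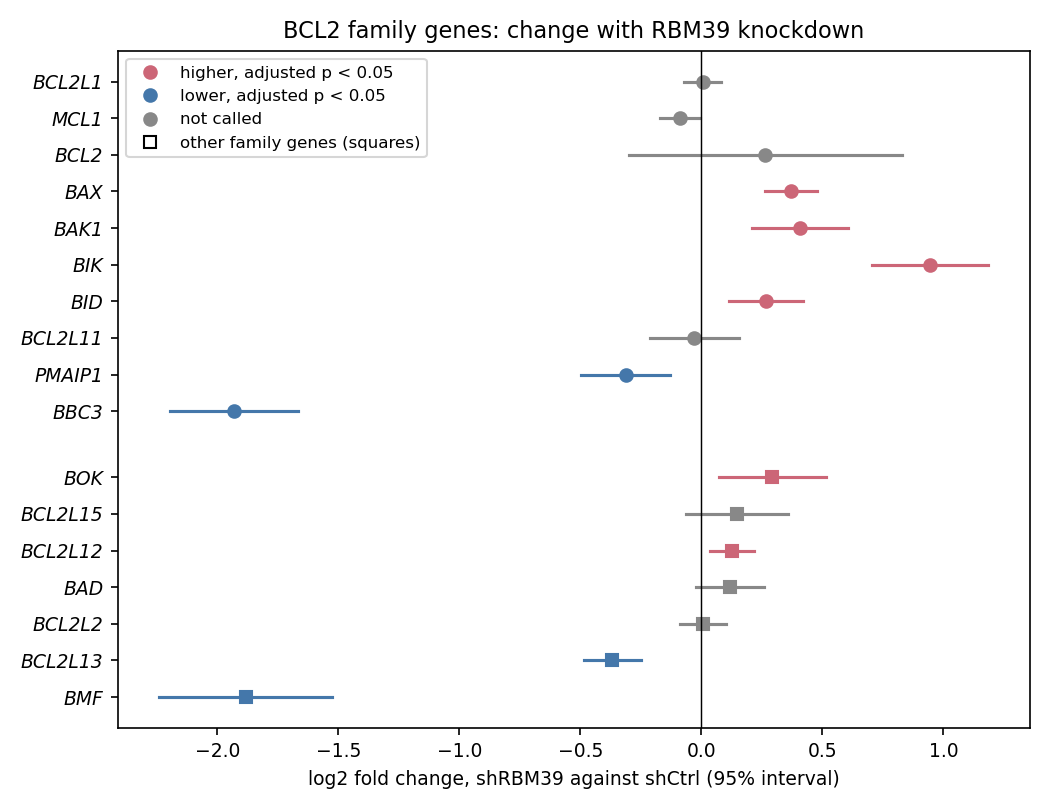
Log2 fold change of shRBM39 against shCtrl in the edgeR fit with 95% intervals, for the 10 genes (circles) and the 7 other BCL2 family genes that could be tested (squares). BBC3 and BMF lie near -1.9, BIK lies at 0.94, and the intervals of BCL2, BCL2L1 and BCL2L11 include 0.

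BAX and BAK1 encode the pore-forming effectors. BAX (chromosome 19, 48954815 to 48961798) had 32.5, 34.1 and 37.3 CPM in shCtrl and 45.1, 44 and 45.2 CPM in shRBM39. All 3 shRBM39 libraries were higher than all 3 shCtrl libraries. The log2 fold change of BAX was 0.37 (95% interval 0.26 to 0.48, edgeR adjusted p 2.20e-07).

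BAK1 (chromosome 6, 33572547 to 33580293) had 9.18, 8.34 and 7.43 CPM in shCtrl and 11.2, 12 and 9.91 CPM in shRBM39. Here too the groups did not overlap. The log2 fold change of BAK1 was 0.41 (95% interval 0.21 to 0.61, edgeR adjusted p 0.000552). Its pseudogenes BAK1P1 and BAK1P2 had at most 1 count in a library, and how reads shared between copies were treated is not given in the sources used here. BAX and BAK1 kept their calls in every fit that left out 1 library and under every scaling tried, though with smaller differences: under library totals BAX was at 0.25 and BAK1 at 0.28, and on log2(RPKM + 1) both were at 0.23. They lost their calls when the null was a change of at most 0.5 on the log2 scale.

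The guardians carried most of the reads. BCL2L1 (chromosome 20, 31664452 to 31723989) had 168, 164 and 169 CPM in shCtrl and 166, 169 and 168 CPM in shRBM39. The groups overlapped fully, and the log2 fold change was 0.01 with a 95% interval of -0.07 to 0.08 (edgeR adjusted p 0.916). Scaling by library totals, which moved the median of all genes by -0.12, gave BCL2L1 -0.12 with an edgeR adjusted p of 0.0049, and both limma fits on log2 RPKM, which rest on the same scaling, also called it lower at -0.12. That value is as large as the shift itself. Alternative 5′ splice sites of this gene yield the protective BCL-xL and the pro-apoptotic BCL-xS, which counts per gene cannot separate. The merged exons of BCL2L1 also share 43.0% of their bases with ABALON on the opposite strand. ABALON had 2061 to 2394 counts per library and a log2 fold change of 0.02. The libraries were stranded, but whether the counting used strand is not given in the sources used here, so the split of reads between these genes is uncertain.

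MCL1, a short-lived guardian, had 92.7, 91.6 and 91.5 CPM in shCtrl and 86.9, 85.1 and 87.5 CPM in shRBM39. The gene lies on chromosome 1, 150574551 to 150579738. The 3 shRBM39 values were below the 3 shCtrl values, as the groups also did not overlap in 63.3% of all tested genes. The log2 fold change was -0.09 (95% interval -0.17 to -0.01), with an edgeR adjusted p of 0.0606. MCL1 was called lower in 6 of 16 alternatives, among them upper-quartile scaling at -0.12 and the correction for GC content and gene length at -0.13. Groups did not overlap in 6 of the 10 members, namely BBC3, BIK, BID, BAX, BAK1 and MCL1.

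BCL2 itself was nearly silent. It had 25, 15 and 24 counts in shCtrl and 16, 28 and 26 in shRBM39, that is 0.71 to 1.24 CPM against 0.82 to 1.63 CPM. The values overlapped, and the 95% interval of the log2 fold change, -0.30 to 0.83, shows that a difference of moderate size in BCL2 (chromosome 18, 63123346 to 63320128) was not detectable at this depth.

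Levels of different genes were compared as RPKM, CPM by library totals divided by the merged exon length in kilobases. BCL2L1 was highest in every library, at 52.4 ± 0.750 RPKM in shCtrl and 48.3 ± 0.349 in shRBM39 (SD, n = 3). This level carries the uncertain split of reads with ABALON. MCL1 followed at 21.9 ± 0.0553 and 18.9 ± 0.310 RPKM, and BAX at 14.0 ± 1.06 and 16.6 ± 0.284 RPKM. BCL2 was lowest in every library, at 0.0923 ± 0.0254 and 0.103 ± 0.0332 RPKM. The places between them were less fixed. PMAIP1 ranked above BIK in shCtrl, at 6.48 ± 0.754 and 4.6 ± 0.298 RPKM. In shRBM39 the order was turned, with BIK at 8.13 ± 0.790 and PMAIP1 at 4.79 ± 0.458 RPKM. PMAIP1 and BAK1 (4.78 ± 0.455 RPKM) did not differ beyond their spread in shRBM39. BBC3 lay above BCL2L11 in shCtrl (2.83 ± 0.135 against 1.81 ± 0.172 RPKM) and below it in shRBM39 (0.680 ± 0.0305 against 1.63 ± 0.172 RPKM).

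**Figure D3:**
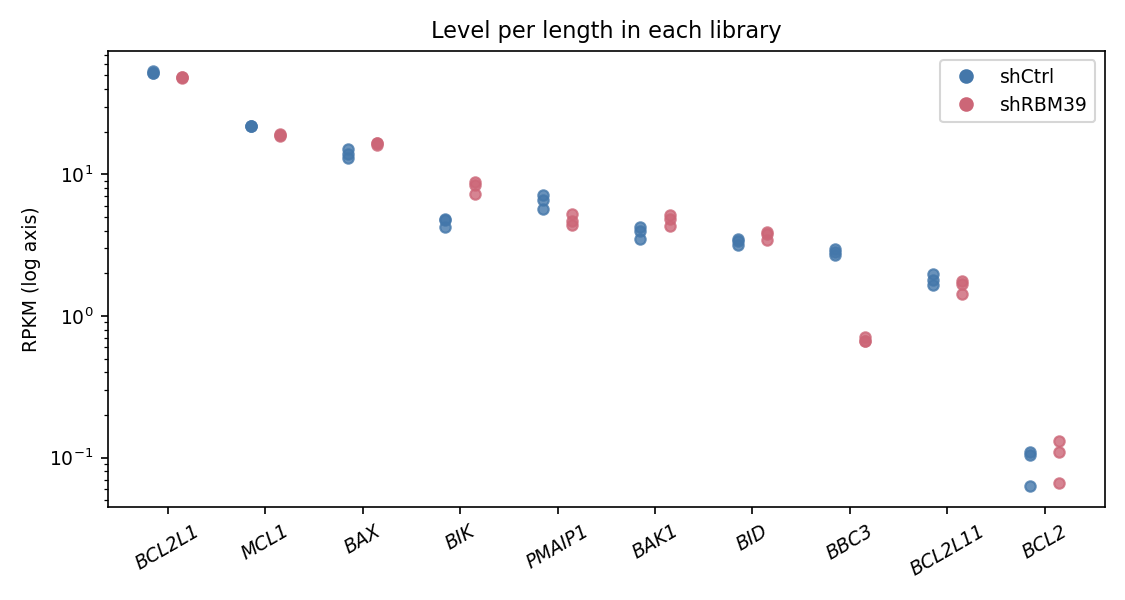
RPKM of the 10 genes in each library on a log axis, ordered by the mean over all 6 libraries. BCL2L1, MCL1 and BAX occupy the top places in both groups, BIK and PMAIP1 exchange places between groups, and BCL2 lies far below the rest.

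Shares within a library do not depend on its scaling. Of the summed RPKM of the 10 genes, the 3 guardians held 66.4% to 67.1% in the shCtrl libraries and 62.1% to 62.9% in the shRBM39 libraries. BCL2L1 was the largest part of the guardian sum, so the uncertain split of its reads with ABALON bears on these shares. BAX and BAK1 together held 15.6% to 16.5% in shCtrl and 19.3% to 20.3% in shRBM39. The 5 BH3-only genes held 16.5% to 17.6% and 16.9% to 18.6%, ranges that overlapped. The makeup of that last group differed between the groups of libraries. BBC3 made up 14.5% to 15.1% of the BH3-only RPKM in shCtrl and 3.53% to 3.68% in shRBM39, PMAIP1 30.7% to 36.7% and 24.4% to 26.1%, and BIK 21.7% to 26.0% and 40.3% to 45.0%. These shares are sums of messenger RNA and not of protein.

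**Figure D4:**
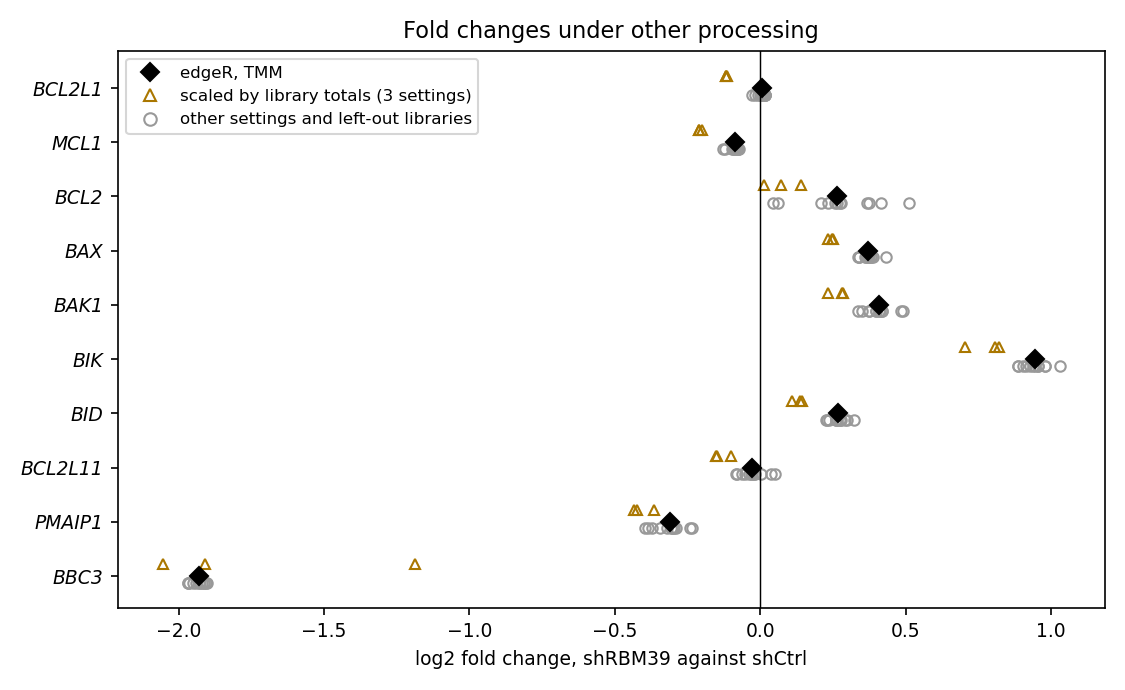
Log2 fold change of each gene in the main fit (black diamonds), in the 3 settings that scale by library totals (triangles) and in the other settings and fits without 1 library (circles). The triangles are shifted to lower values for most genes, BBC3 and BIK stay on their side of 0 throughout, and BCL2L1 and BCL2L11 cross it.

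The splicing table lists events that the authors compared with rMATS, in groups numbered 1 and 2. Which of them is the knockdown is not stated, and the table holds only records that passed a selection on p-value and difference. Of the 10 genes, 2 had a record, BID and BBC3, where 6.54% of tested genes had at least 1. Both records were skipped exon (SE) events, of which 4.76% of those tested were listed. No record was listed for BCL2L1, MCL1 or BCL2L11, whose alternative isoforms are well known, and events without a listed difference were not analysed here. The BID exon is shown whole because it is coding throughout and its length is not a multiple of 3. It is exon 3 of 6 of the canonical transcript (chr22:17743803-17744013, minus strand, GRCh38), 211 bases long, all of them coding. It is printed 5′ to 3′ with the exon in capitals and 20 bases of each intron in lower case.
BID exon 3: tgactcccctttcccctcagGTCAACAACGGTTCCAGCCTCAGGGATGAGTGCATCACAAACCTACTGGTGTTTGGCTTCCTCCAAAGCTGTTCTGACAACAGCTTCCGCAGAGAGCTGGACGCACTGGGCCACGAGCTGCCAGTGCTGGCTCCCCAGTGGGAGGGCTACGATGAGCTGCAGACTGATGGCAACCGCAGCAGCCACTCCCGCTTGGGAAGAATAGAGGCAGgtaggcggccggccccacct

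In the authors' deposited reads, group 1 included BID exon 3 at levels of 0.416, 0.407 and 0.424. The levels of group 2 were 0.575, 0.640 and 0.580. The inclusion level is the share of including reads after correction for the effective lengths of 341 and 130 bases. The 3 values of group 1 lay below the 3 of group 2. They rest on 28 to 44 reads per library in group 1 and 34 to 41 in group 2, with 40 skipping reads over group 1 and 23 over group 2. The difference of the mean levels, group 1 minus group 2, was -0.183, and the exact two-sided permutation p was 0.1, the smallest that 3 values against 3 allow. Because records were listed for their difference, this value is a description. The skipping form in the record joins exons that overlap exons 1 and 4 of the canonical transcript. Exon 2 is not a flanking exon of this record, so the level need not equal the share of all BID transcripts that hold exon 3. GC content in the exon was 58.8%.

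The BBC3 record is exon 2 of 4 (chr19:47228158-47228446, minus strand, GRCh38), which carries the start codon of the canonical transcript. Of its 289 bases, 274 are coding, and the coding part has a GC content of 82.1%. It is printed with the start codon in capitals because skipping this exon removes that codon.
BBC3 exon 2, coding part: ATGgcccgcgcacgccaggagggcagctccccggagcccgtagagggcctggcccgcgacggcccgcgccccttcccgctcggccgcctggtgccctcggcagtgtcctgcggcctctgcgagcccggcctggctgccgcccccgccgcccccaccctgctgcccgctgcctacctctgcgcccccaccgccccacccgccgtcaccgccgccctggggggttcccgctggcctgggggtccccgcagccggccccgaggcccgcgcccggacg

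Reads of the BBC3 event were few in what the authors deposited. Group 1 had 9 in all, 2 including the exon and 7 skipping it. Group 2 had 37, with 16 including and 21 skipping. Group 1 had inclusion levels of 0.237, 0 and 0, from 4, 2 and 3 reads. Group 2 had 0.237, 0.058 and 0.352, from 14, 12 and 11 reads. The groups overlapped, and the difference of -0.137 had an exact two-sided permutation p of 0.3.

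**Figure D5:**
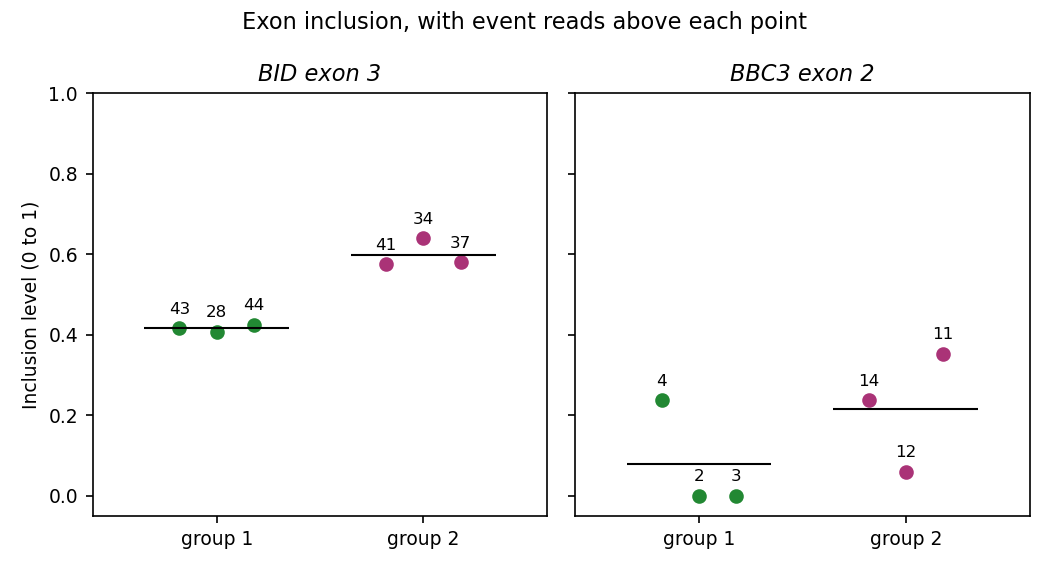
Inclusion level (0 to 1) of BID exon 3 and BBC3 exon 2 in the 3 values of each group of the splicing table, with the number of event reads above each point and a line at the mean. For BID the groups are separate with 28 to 44 reads a point; for BBC3 they overlap with 2 to 14 reads a point.

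The remaining family genes were examined as a list of 11. For this list and those below, the background over all tested genes was 29.2% called higher and 29.9% lower. Of these, 7 could be tested, with 2 called higher and 2 lower and a median log2 fold change of 0.12. BMF, a BH3-only gene whose protein is held at the cytoskeleton, was the second family gene with a large fall, from 5.80 ± 0.428 to 1.59 ± 0.595 CPM (SD, n = 3; log2 fold change -1.88, standard error 0.18, edgeR adjusted p 2.53e-11), next to BBC3 in size. On log2(RPKM + 1) the difference of BMF was -0.72. BCL2L13, a mitochondrial outer membrane protein gene, fell by 0.37. BOK, an effector-like gene, rose by 0.29 and BCL2L12 by 0.13. The calls of BOK and BCL2L12 were lost in 8 and 7 of 16 alternatives. BCL2L2 (BCL-w) differed by 0.01, but shares exon bases with the readthrough gene BCL2L2-PABPN1, so its reads are uncertain. BCL2A1, BCL2L10, HRK and BCL2L14 did not pass the filter on low counts.

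Among the apoptosome and caspase genes, 5 of 9 were called higher and 0 lower, with a median of 0.22. Of all tested genes, 29.2% were called higher and 29.9% lower. CYCS, which encodes cytochrome c, rose by 0.75 (160 ± 13.0 to 270 ± 10.6 CPM; SD, n = 3), and CASP6, an executioner caspase gene, by 0.85 (edgeR adjusted p 2.31e-16 and 2.14e-08). Of 7 genes for released mitochondrial factors and outer membrane channels, 5 were higher and 0 lower, with a median of 0.31. VDAC3, a channel gene, rose by 0.79 and AIFM1, which encodes apoptosis-inducing factor, by 0.38. Among 6 tested genes of the inhibitor of apoptosis family, 1 was higher and 4 lower, with a median of -0.43. BIRC5, which encodes survivin, a protein that also acts in mitosis, rose by 1.19, from 90.1 ± 2.21 to 206 ± 5.15 CPM (SD, n = 3). BIRC3 and NAIP had the lowest values of this list, -1.26 and -0.72.

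Upstream genes moved in both directions. Of 10 death receptor pathway genes, 5 were higher and 4 lower, against 29.2% and 29.9% of all tested genes, with a median of -0.06. The receptor gene FAS rose by 1.36, from 1.54 ± 0.0935 to 3.98 ± 0.646 CPM (SD, n = 3), and the decoy receptor gene TNFRSF10D by 0.45. TNFRSF10B, the TRAIL receptor DR5, fell by 0.93 and the adaptor gene TRADD by 0.44. Of 9 tested transcription factor genes known to act on BH3-only genes, 3 were higher and 5 lower, with a median of -0.28. TP73 and E2F1 rose by 1.47 and 0.95. DDIT3, which encodes CHOP, fell by 1.22 and MYC by 0.96, from 344 ± 17.4 to 176 ± 4.18 CPM (SD, n = 3).

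Of 12 p53 target genes outside the family, 4 were higher, 3 lower and 5 not called, with a median of -0.03. PHLDA3 rose by 0.68. CDKN1A, at 1.39 ± 0.474 against 2.00 ± 0.178 CPM (SD, n = 3), had a log2 fold change of 0.53 with an edgeR adjusted p of 0.0435, a call kept in 4 of 16 alternatives. SESN2 and GDF15, which also respond to ATF4, fell by 1.10 and 0.73. Among 6 genes acting on MCL-1 protein turnover, 0 were higher and 4 lower, with a median of -0.29. The deubiquitinase gene USP9X fell by 0.49 and the ubiquitin ligase subunit gene BTRC by 0.48. Beside each count stands the background of 59.1% called, 29.2% higher and 29.9% lower, and nothing particular to any list follows from its count.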

How the data were processed

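Stranded mRNA libraries of 6 SW480 samples, 3 shCtrl and 3 shRBM39, were grouped by sample title; columns named NC were taken as shCtrl, since the series has no other control. The values deposited by the authors are raw counts for each gene symbol. The submitters' processing notes name Trimmomatic 0.36, STAR 2.5.3a, featureCounts, Subread 1.5.1, edgeR 3.12.1 and the build GRCh38. Handling of multi-mapped reads, the strand setting and collapsing of unique identifiers are not given in the sources used here. The authors also deposited RPKM values, which equalled counts divided by length and library total. The authors' other deposited values are rMATS reads and effective lengths per splicing event (version not given) and a tally of events tested; their columns of p-values, FDR and differences were not used. Inclusion levels were recomputed from the reads.

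Counts were tested with edgeR 4.0.16 in R 4.3.3: filterByExpr, TMM, a quasi-likelihood fit on group and Benjamini-Hochberg adjustment over 18243 genes at 0.05. Standard errors came from the fold change and its F statistic. Alternatives were DESeq2 1.42.0, limma 3.58.1 on log2 RPKM with pseudocounts of 1 and 0.1, other scalings, filters and thresholds, a correction for GC content and length, a replicate block and each library left out. Only the main edgeR fit, its form with the replicate block and the DESeq2 fit were also run on simulated data. Same-numbered libraries did not deviate together (correlations from -0.03 to 0.01). Totals of 18042924 to 20428901 counts limit the precision of genes with few counts. Named were all members, RBM39 and, per list, the 2 highest and 2 lowest called genes averaging 1 CPM or more; other genes were named after their values were seen. The members, lists and motifs were chosen with earlier results of these data known.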

Additional observations from a re-analysis of the deposited data

How the results depend on the processing

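The 10 members gave 6 calls in the main fit, 6 or 7 under every other setting that kept a test against 0, and 2 when the null was a change of at most 0.5 (log2), which also reduced the calls over all genes from 10790 to 2232. In that test BAX (0.37), BAK1 (0.41), BID (0.27) and PMAIP1 (-0.31) lost their calls. The lists then held 1 call in the other BCL2 family, 2 for apoptosome and caspases, 1 for mitochondrial factors, 2 for inhibitors of apoptosis, 2 for death receptors, 4 for transcription factors, 2 for p53 targets and 0 for MCL-1 turnover. The other BCL2 family list, with 4 calls, also fell to 2 in both log2 RPKM fits, at an adjusted p under 0.01 and without shRBM39 replicate 1. BID lost its call under library totals (0.14) and in the fits on log2(RPKM + 1) and log2(RPKM + 0.1) (0.11 and 0.14). MCL1 gained one under upper-quartile scaling (-0.12), library totals (-0.21), a minimum of 10 counts (-0.10), both RPKM fits (-0.20 and -0.21) and the GC correction (-0.13). The sign of BCL2L1 turned under upper-quartile scaling (-0.028), library totals (-0.12), a minimum of 10 counts (-0.0027), both RPKM fits (-0.12 and -0.12), the GC correction (-0.020) and without shCtrl replicate 2 (-0.0079); it was called lower under library totals and in both RPKM fits, and leaving out 1 library gave -0.0079 to 0.017. BCL2L11 turned without shCtrl replicate 2 (0.038), without shRBM39 replicate 2 (0.052) and with the GC correction (0.0020); leaving out 1 library gave -0.083 to 0.052. Apart from the tests built to be stricter, the causes were not tested.

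Library totals alone moved the median of all genes by -0.12 and lowered the share of higher calls from 49.4% to 33.9%, and both RPKM fits gave 33.6%. With the replicate block 10810 genes and 6 members were called, and no member changed its call. The order of the 10 genes by RPKM differed from that of the overall mean for 2 genes with TMM-scaled sizes, for 2 in each shCtrl library and in shRBM39 replicate 3, and for 4 in shRBM39 replicates 1 and 2. The BID difference in inclusion was -0.145 without the correction for effective length. At 15 to 28 counts, BCL2 is limited by depth, and each BBC3 inclusion level rests on 2 to 14 reads.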

Other observations

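Splicing records of other apoptosis genes, looked up after the tables had been seen, were listed for 5 of the 66 tested genes of the pathway lists, against 6.54% of tested genes. In the authors' deposited reads, BTRC (exon 2, chromosome 10, 101430345 to 101430452), which encodes a ubiquitin ligase subunit, had inclusion levels of 0.480, 0.400 and 0.391 for group 1. Those of group 2 were 0.510, 0.566 and 0.631, from 37 to 78 reads per value, without overlap. A second BTRC record of the same exon, with other flanking exons, had a mean level of 0.922 for group 1 and 0.723 for group 2, with values that overlapped and as few as 3 reads behind one of them. BIRC6 exon 14 (chromosome 2, 32435496 to 32435585), in an inhibitor of apoptosis gene, had 0.456, 0.486 and 0.571 for group 1. Group 2 had 0.628, 0.770 and 0.674, from 13 to 29 reads per value, also without overlap. For each of these the exact two-sided permutation p was at least 0.1, the smallest that the design allows. The records of BCL2L13, DIABLO and TRADD overlapped between the groups, and that of DIABLO rested on as few as 1 read per value.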
